A study of Homo sapiens with 8 samples.

Results

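Transcripts of 3 classes of ubiquitin pathway gene were followed in Ago2-bound and total RNA of KM-H2 cells: E2 conjugating enzymes (UBE2), RING finger proteins with a numbered RNF symbol (RNF) and F-box proteins (FBXW, FBXL and FBXO, together FBX). Members were chosen by gene symbol alone, and 1 numbered RNF gene was set aside by the rule. Of the 16065 probes with deposited normalised values, 162 probes for 114 of the 8757 named genes qualified, namely 48 probes for 29 UBE2 genes, 70 probes for 49 RNF genes and 44 probes for 36 FBX genes. One UBE2S probe lay on a spot marked as an outlier by the scanner software and has no value here, so that 161 probes are described among 16060. On the whole array the same symbols matched 242 probes for 161 genes, so 47 genes had no probe with deposited values. UBE2C and FBXL5 had no probe matched to them.

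KM-H2 is an established cell line from classical Hodgkin lymphoma, a B-cell lymphoma. The cells had been transduced either with the empty retroviral vector pMSCV-PIG (EV) or with that vector carrying a sponge against miR-155 (miR-155-sp), whose transcript has binding sites for this miRNA, and transduced cells had been sorted for GFP. All groups thus carry the vector, and no other agent or genotype differs between them. Total RNA (T) of both populations and the RNA precipitated with an antibody against Ago2 (IP) had been hybridised to 2-colour arrays. Each of these 4 RNA samples was labelled with Cy3 and again with Cy5. There is therefore 1 RNA sample per group, both labellings are technical, no test was possible, and all differences below lack a replicate check. The array measures neither mature miR-155 nor the sponge, so the degree of inhibition is not known from these data.

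Ubiquitin is passed from an E1 activating enzyme to an E2 enzyme and, with the help of an E3 ligase, on to a substrate protein. RING finger proteins are E3 ligases that bring a loaded E2 and a substrate together. F-box proteins are the exchangeable substrate receptors of the SCF ligases, in which a cullin scaffold carries a RING subunit at one end and the adaptor SKP1 with the F-box protein at the other. In lymphocytes this system sets the level of NF-kappaB inhibitors, cell cycle regulators and survival proteins. An mRNA loaded into Ago2 by a miRNA is enriched in the IP fraction, and the ratio IP/T is the measure used here. It is read against the bulk of probes and does not count bound molecules.

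The miRNA that the sponge is directed against is shown because its seed, bases 2 to 8 in capitals, defines which transcripts it can pair with. Both mature strands are from RefSeq on GRCh38.p14 and lie on the plus strand at chr21:25573983-25574006 and chr21:25574022-25574043.
hsa-miR-155-5p: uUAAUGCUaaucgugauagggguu
hsa-miR-155-3p: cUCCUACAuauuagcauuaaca
A transcript site that matches the 5p seed and has an A opposite the first base reads AGCATTAA. Transcript sequences were not searched here, so no member is called a miR-155 target from its sequence.

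Detection was weaker in Cy5, where 38.8% to 43.4% of spots passed the scanner software's test of being well above background, than in Cy3 (58.9% to 61.9%). Of the 161 member probes, 131 passed this test in each of the 8 channels, 20 in 7 channels and 10 in 6 channels. No member with deposited values was detected in fewer than 6 channels, so genes of very low expression are not represented. Of 9 Hodgkin marker genes, 8 were well above background in all 4 total RNA channels and CCL22 in none. Of 7 B cell genes only CD79A passed in this way. The same count was 1 of 4 T cell genes (CD2), 1 of 3 myeloid genes (CSF1R), 0 of 2 erythroid genes and 1 of 3 epithelial genes (KRT8). All samples came from the KM-H2 line, so these counts are not read as shares of cell types.

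The first question was how strongly transcripts of each class were held by Ago2. In EV cells the RNF probes had the highest values, FBX probes were intermediate and UBE2 probes were close to the array as a whole. An IP/T of at least 2, the threshold for enrichment in the study's methods, was reached by 23 of 70 RNF probes (32.9%), 10 of 44 FBX probes (22.7%) and 6 of 47 UBE2 probes (12.8%). Over all probes the share was 15.1%. In miR-155-sp cells the counts were 23, 10 and 7, against 16.0% of all probes. The median log2 IP/T in EV cells was 0.40 for RNF, 0.14 for FBX, -0.10 for UBE2 and -0.25 for all probes. In miR-155-sp cells the medians were 0.44, -0.045, -0.22 and -0.26. The RNF median was the highest of the 3 classes with IP in Cy5 (0.46) but not with IP in Cy3, where RNF stood at 0.25 and FBX at 0.28. The UBE2 median was the lowest in either orientation (-0.22 and -0.0086).

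The shares of depleted probes were close to each other in EV cells. An IP/T of at most 0.5 was seen for 6 UBE2, 8 RNF and 5 FBX probes in EV cells, and 12.9% of all probes were that low. In miR-155-sp cells the counts were 9, 6 and 4, against 13.9% of all probes. Under a different preprocessing, in which normexp background correction, loess and Aquantile normalization were changed together, no member in either population was at or below 0.5. The share of all probes that low was then 2.36% in EV and 1.91% in miR-155-sp cells. With this preprocessing 15 RNF, 6 FBX and 4 UBE2 probes were enriched in EV cells, and the share over all probes was 9.34%.

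**Figure D1:**
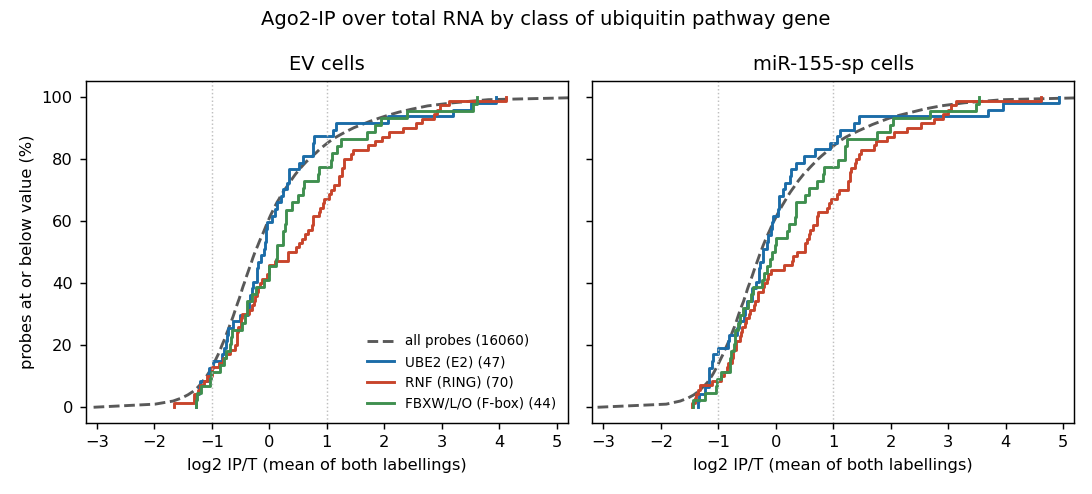
Cumulative share of probes (percent, y axis) at or below each log2 IP/T (x axis) in EV and miR-155-sp cells for UBE2, RNF and FBX probes and for all probes, with dotted lines at an IP/T of 0.5 and 2. The RNF curve runs to the right of the others between log2 values of 0.5 and 2, and the UBE2 curve follows that of all probes, with medians of -0.10 and -0.25 in EV cells.

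Within these E2 enzymes, enrichment was carried by few genes. All 3 probes of UBE2W, an E2 that attaches ubiquitin to the amino terminus of its substrates, were strongly enriched. For the UBE2W probe detected in all channels, the log2 signal in EV total RNA was 8.00 (Cy3) and 8.32 (Cy5), and in EV IP RNA it was 11.69 and 11.64. With the sponge, total RNA gave 7.91 and 7.84 and IP RNA 11.77 and 11.92. IP/T was 11.3 (EV) and 15.6 (miR-155-sp). The other two UBE2W probes had an IP/T of 15.3 and 9.22 in EV cells and of 30.4 and 12.9 in miR-155-sp cells, but in each population their total RNA was well above background in only 1 of 2 labellings.

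UBE2V2, the catalytically inactive partner of UBE2N in building non-degradative ubiquitin chains, had an IP/T of 2.24 in EV and 2.56 in miR-155-sp cells. Its partner UBE2N was not enriched, with 3 probes between 0.934 and 1.03 in EV cells. UBE2Z, which accepts ubiquitin from the alternative E1 UBA6, lay at the threshold, with 2 of its 3 probes at 2.15 and 1.72 in EV and at 1.93 and 2.17 in miR-155-sp cells. These UBE2Z values differed by less than the spread between orientations, which ran from 1.77 to 2.61 for the first probe in EV cells.

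The UBE2D family, broadly acting E2 enzymes that work with many RING ligases, did not move as a block. UBE2D2 had low values with both probes in EV cells (0.426 and 0.509), while UBE2D3 (0.787 and 0.977) and UBE2D4 (0.961) were near 1. The probes of UBE2D1 disagreed. The brighter one had an IP/T of 1.27, and the dimmer one of 4.21, with 3.1 and 5.71 in the single orientations. The UBE2D genes are close paralogs, and signal from a related transcript cannot be told apart here.

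E2 enzymes of the ubiquitin-like modifiers stood at the low end. Their 5 probes for 4 genes had a median log2 IP/T of -1.06 in EV and -1.01 in miR-155-sp cells, and none reached an IP/T of 2. UBE2M, which loads cullins with NEDD8, had a log2 signal of 12.16 and 12.10 in EV total RNA and of 10.94 and 10.78 in EV IP RNA. Its IP/T was 0.413 in EV and 0.448 in miR-155-sp cells. UBE2MP1, a pseudogene whose sequence is close to that of UBE2M, gave 0.414 and 0.396, and the 2 probes may detect the same RNA. UBE2F, the other NEDD8 E2, was also low, with probes at 0.480 and 0.435 in EV cells. UBE2L6, the E2 of ISG15, was at 0.810 in EV cells, a log2 value of -0.30 against a median of -0.25 for all probes. UBE2T, an E2 of the Fanconi anaemia pathway with the brightest total RNA signal among the members (log2 14.29), had an IP/T of 1.09.

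**Figure D2:**
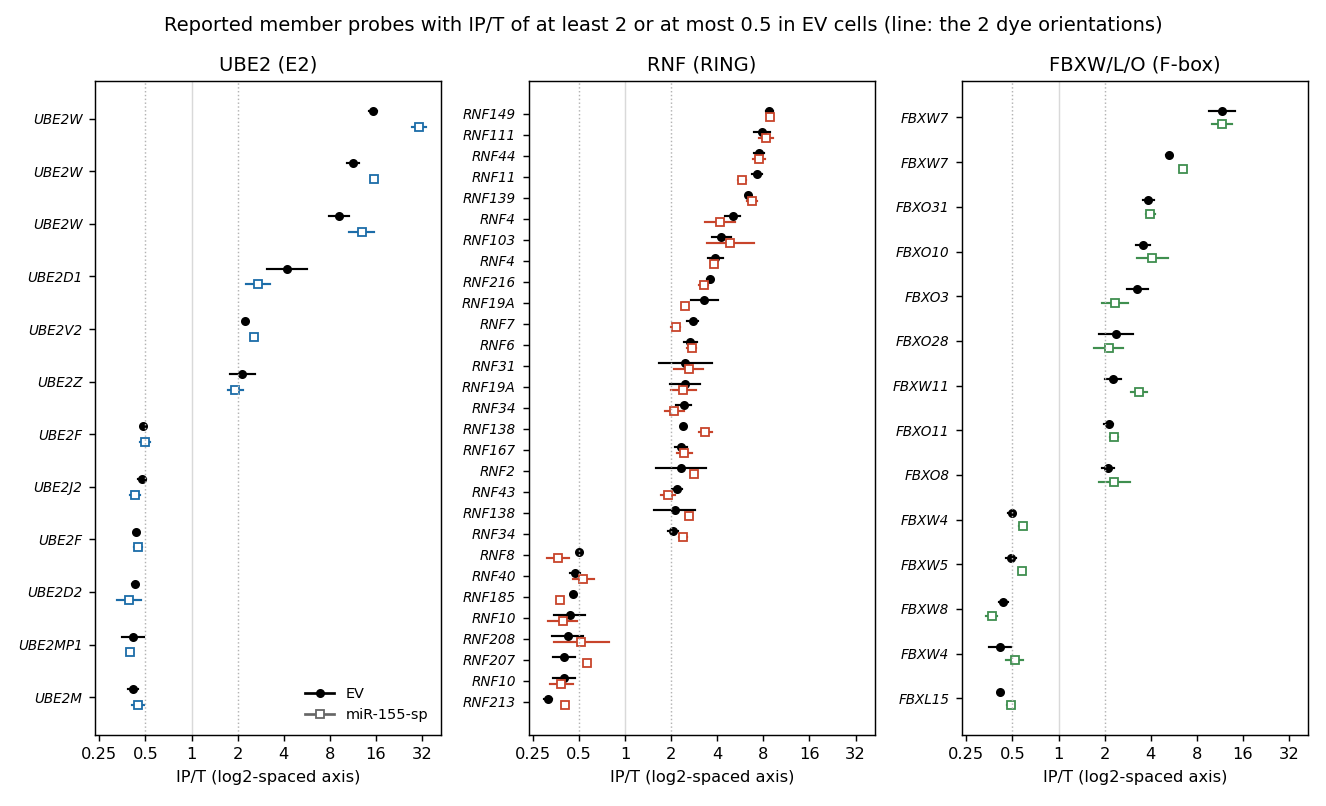
IP/T (x axis, log2-spaced) of the reported member probes with an EV value of at least 2 or at most 0.5, for EV (filled circles) and miR-155-sp (open squares), where each symbol is the mean of both labellings and the line joins the values of the 2 dye orientations. Enriched probes reach 15.3 (EV) and 30.4 (miR-155-sp), whereas depleted probes do not fall below 0.315 in EV cells.

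Enrichment among RING proteins was spread over many genes. Of 49 RNF genes, 17 had a mean over their probes past an IP/T of 2 in EV cells, against 3 of 29 UBE2 and 8 of 36 FBX genes. Over all named genes it was 1380 of 8756 (15.8%). RNF44, a RING finger protein well above background in 8 channels, gave a log2 signal of 10.44 and 10.78 in EV total RNA and of 13.58 and 13.46 in EV IP RNA. Its IP/T was 7.52 in EV and 7.48 in miR-155-sp cells.

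Among RNF probes detected in all 8 channels, RNF149, a membrane-anchored ligase, had the highest IP/T. Its log2 signal was 9.70 and 9.68 in EV total RNA and 12.89 and 12.75 in EV IP RNA, and 9.59 and 9.56 against 12.70 and 12.72 in miR-155-sp cells. The 4 IP values, technical labellings of 1 sample in each population, lay about 3 log2 units above the 4 total values. IP/T was 8.73 in EV and 8.79 in miR-155-sp cells. RNF11, part of the A20 complex that limits NF-kappaB signalling, had an IP/T of 7.28 in EV and 5.79 in miR-155-sp cells, and RNF139, a ligase of the endoplasmic reticulum, of 6.33 and 6.76.

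The SUMO-targeted ligases RNF4 and RNF111 were both enriched. The RNF4 probes gave 5.03 and 3.90 in EV and 4.16 and 3.81 in miR-155-sp cells. RNF111, named here after its values were seen, gave 7.84 and 8.31. Of the 11 probes for 8 RING proteins of chromatin and DNA repair, 6 passed an IP/T of 2 in EV cells, against 15.1% of all probes. Those 6 probes came from 4 genes, and 3 of the 8 genes passed in the mean of their probes. The group's median log2 total signal was 8.14. Among all probes of low total signal (up to 8.77), 25.6% were enriched in EV cells, and the part of signal here was not tested. Another 2 of the 11 probes (18.2%) had an IP/T of at most 0.5 in EV cells, against 12.9% of all probes. RNF8, which marks chromatin at DNA breaks, was at 0.50 in EV and 0.364 in miR-155-sp cells. RNF40 was at 0.471 and 0.534. RNF2, the catalytic subunit of Polycomb repressive complex 1, had discordant probes at 2.31 and 0.674 in EV cells, the first of them well above background in 6 channels.

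Of the 9 probes for 5 RING-between-RING ligases, 4 were enriched in EV cells, against 15.1% of all probes. Those 4 probes came from 3 genes. The group's median log2 total signal was 8.15, and 25.6% of all probes of low total signal were enriched. The part of signal was not tested here either. RNF31, which builds linear ubiquitin chains in NF-kappaB signalling, had an IP/T of 2.47 in EV and 2.61 in miR-155-sp cells. The dye orientations of RNF31 were far apart in EV cells (3.67 and 1.66). RNF19A gave 3.29 and 2.46, and the most enriched RNF216 probe 3.58 and 3.26. Of the 20 probes for 14 membrane-associated RING proteins, 7 (35%) passed an IP/T of 2 in EV cells. This was close to the share of the other RNF probes, 16 of 50 (32%). RNF26, an endoplasmic reticulum protein, stayed just under the threshold (1.83 and 1.51). RNF7, a RING subunit of cullin ligases and the RNF gene with the brightest EV total signal (log2 13.57), was named after its values were seen. Its IP/T was 2.76 in EV and 2.15 in miR-155-sp cells.

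Further RNF genes passed an IP/T of 2, and those that follow are named here after their values were seen. RNF103, a ligase of the endoplasmic reticulum, had 4.25 in EV and 4.88 in miR-155-sp cells. RNF6 had 2.67 and 2.72, RNF167 had 2.32 and 2.44 with its higher probe, and RNF43, a negative regulator of Wnt receptors, had 2.17 and 1.91. Both probes of RNF34 (2.42 and 2.06) and of RNF138 (2.40 and 2.11) passed in EV cells.

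The lowest RNF values belonged to RNF213, a large ATPase and ligase. It gave a log2 signal of 9.36 and 9.16 in EV total RNA against 7.58 and 7.61 in EV IP RNA. Its IP/T was 0.315 in EV and 0.403 in miR-155-sp cells. RNF10 (0.401 and 0.383) and RNF208 (0.422 and 0.516) were also low. Of these, both RNF10 probes were low. Besides RNF8, the other RNF probes at or below 0.5 in EV cells were those of RNF207 (0.401), RNF185 (0.456) and RNF40 (0.471), a partner of RNF20 in the ubiquitylation of histone H2B. The 2 RNF probes with the median value of the class, for RNF135 and RNF125, had an IP/T of 1.38 and 1.26 in EV cells.

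Among F-box genes the counts of the 3 subclasses differed, but not in the same way in both populations. In EV cells 3 of 11 FBXW probes were enriched and 4 of 11 had an IP/T of at most 0.5. For FBXL probes the counts were 1 and 1 of 10, and for FBXO probes 6 and 0 of 23. Over all probes the shares were 15.1% and 12.9%. In miR-155-sp cells the counts were 3 and 1 for FBXW, 1 and 3 for FBXL and 6 and 0 for FBXO. The shares of all probes were then 16.0% and 13.9%. FBXW7, the receptor that directs MYC, cyclin E and NOTCH to degradation, had the highest value of all F-box probes detected in all channels. The brighter FBXW7 probe gave a log2 signal of 10.00 and 9.71 in EV total RNA and of 13.54 and 13.26 in EV IP RNA, and with the sponge of 9.80 and 9.77 against 13.52 and 13.12. IP/T was 11.7 in EV and 11.6 in miR-155-sp cells. The second FBXW7 probe gave 5.28 and 6.46.

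Further F-box probes were enriched in EV cells. FBXO10, a receptor for BCL2, had an IP/T of 3.57 in EV and 4.11 in miR-155-sp cells. FBXO11, a receptor for BCL6, had 2.13 and 2.31. FBXO31, a receptor for cyclin D1, had 3.87 and 3.99. FBXW11, which recognises the NF-kappaB inhibitor IkappaB and beta-catenin, had 1 probe at 2.26 and 3.37 and a brighter probe at 1.31 and 1.27. FBXO28 (2.37 and 2.12), FBXO3 (3.26 and 2.35) and FBXO8 (2.10 and 2.32), named after their values were seen, were also enriched. FBXO5, the inhibitor of the anaphase promoting complex, was at 1.22 and FBXO7 at 0.635 in EV cells. Among F-box probes detected in all 8 channels, the lowest EV values were those of FBXL15 (0.414, and 0.488 with the sponge), FBXW4 (0.416 and 0.517) and FBXW5 (0.489 and 0.574). An FBXW8 probe detected in 7 channels was at 0.437 and 0.367. A typical F-box probe, FBXL6, was at 1.1 in EV cells.

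How far a gene's probes agreed bears on each of these values. For 39 genes with several probes, the median spread of log2 IP/T between the probes in EV cells was 0.36, and 25 genes had a spread of 0.50 or less. In 6 genes it was over 1, among them RNF2, UBE2D1, RNF216, RNF41 and FBXW7. Both probes of FBXW7 still passed an IP/T of 2, whereas the probes of RNF2, UBE2D1 and RNF216 lay on either side of it, and both RNF41 probes lay below it (1.91 and 0.807). The threshold itself passed between RNF34 (2.06) and FBXO8 (2.10) just inside and RNF167 (1.93) and RNF41 (1.91) just outside. The 4 RNF5 probes were concordant and low, but RNF5 has a near-identical pseudogene whose RNA cannot be told apart.

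**Figure D3:**
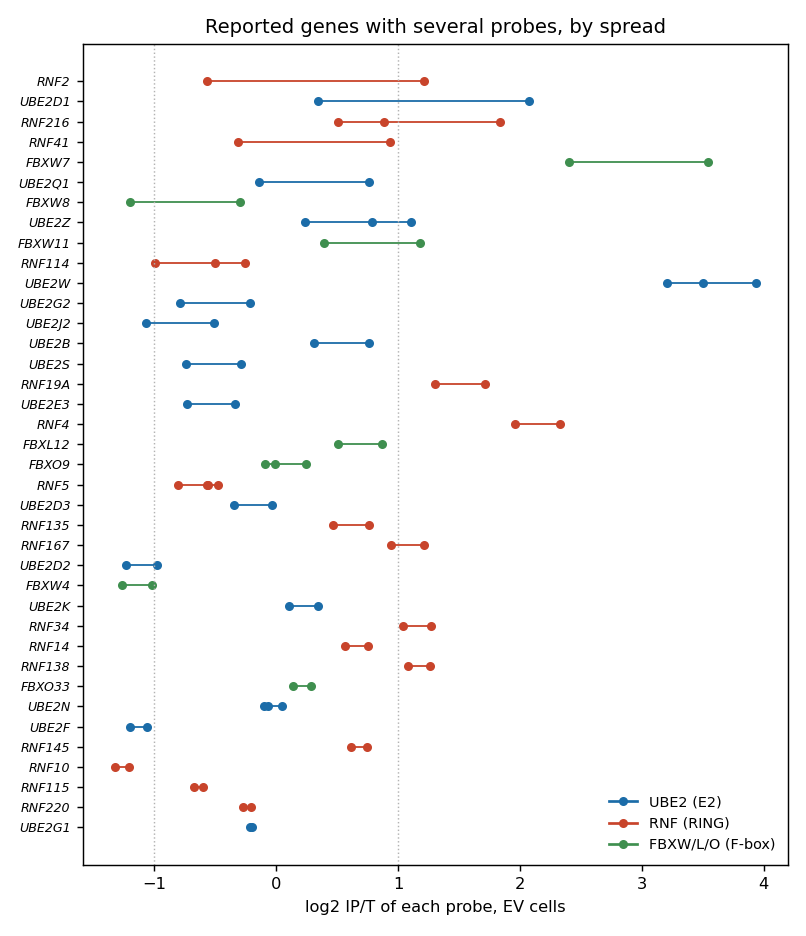
Log2 IP/T in EV cells (x axis) of each probe of the reported member genes with several probes, ordered by the spread between probes, with dotted lines at an IP/T of 0.5 and 2. The genes at the top, from RNF2 to FBXW7, have a spread over 1, and most of the others have one of 0.50 or less.

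IP/T was higher at low total signal, and signal differed between the classes. Total signal is also the denominator of IP/T, so they are not independent measures. Of the 39 member probes enriched in EV cells, 7 had total RNA well above background in only 1 of 2 EV labellings. The median log2 total signal was 10.16 for UBE2, 9.19 for RNF, 9.01 for FBX and 9.71 for all probes. These are signals of probes with different sequences and do not rank transcript amounts. Over all probes the share enriched in EV cells was 25.6% among probes of low total signal, 12.2% among those of middle and 7.64% among those of high signal, with nearly equal numbers of probes in each bin. RNF probes were above that share in each bin, with 11 of 29, 7 of 21 and 5 of 20. UBE2 probes had 5 of 8, 0 of 17 and 1 of 22, and FBX probes 6 of 19, 4 of 15 and 0 of 10. The part of signal in the class differences was not tested. Restricted to probes that passed the background test in each of the 8 channels, the RNF median exceeded that of all probes by 0.36 in EV and 0.18 in miR-155-sp cells, in place of 0.65 and 0.70.

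**Figure D4:**
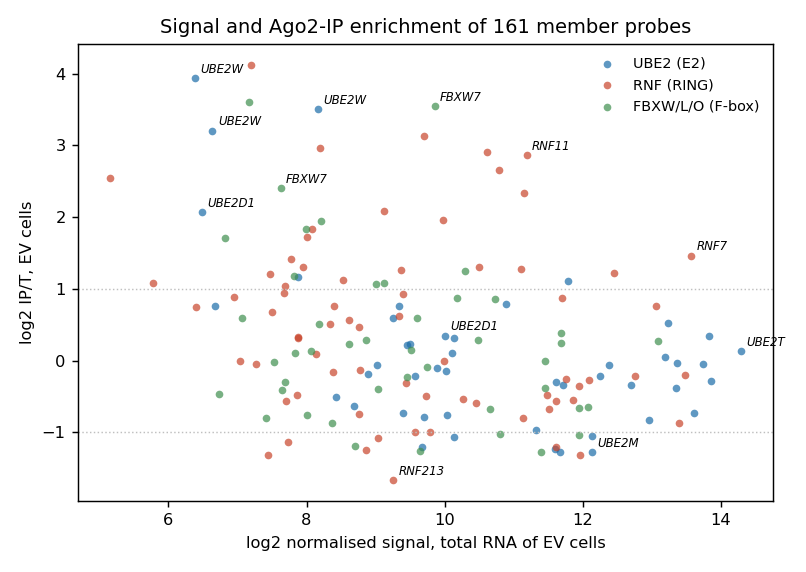
Log2 IP/T in EV cells (y axis) against log2 normalised signal in EV total RNA (x axis) for 161 member probes coloured by class, with dotted lines at an IP/T of 0.5 and 2. High IP/T values lie mostly at low total signal, with RNF11 and RNF7 among the bright exceptions, and UBE2T at log2 14.29 has the brightest total signal. The total signal on the x axis is also the denominator of IP/T.

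Gene length was looked at because the rule did not use it. The 28 member genes with enrichment in the mean of their probes in EV cells had a median genomic span of 46.9 kb in the RefSeq table, and the other member genes 35.4 kb. Over all genes the medians were 41.0 and 24.8 kb. Among RNF genes alone the spans were 37.5 and 37.9 kb.

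The second question was how Ago2 binding of these transcripts differed between miR-155-sp and EV cells. The study proposes that the sponge left part of the miR-155 in its Hodgkin lymphoma lines free. Of 39 member probes enriched in EV cells, 37 remained so with the sponge (94.9%), close to the 2247 of 2432 (92.4%) over all probes. UBE2Z and RNF43 fell below the threshold with 1 probe each, and UBE2Z and UBE2B (1 probe each) and RNF168 rose above it in miR-155-sp cells. Across the 161 probes, which share arrays and are not replicates, log2 IP/T of both populations had r = 0.977. The median shift of log2 IP/T (miR-155-sp minus EV) was -0.063 for UBE2, -0.054 for RNF, -0.038 for FBX and -0.00080 for all probes. With the IP in Cy5 and in Cy3, the medians were -0.025 and -0.067 for UBE2, -0.12 and -0.046 for RNF, -0.024 and -0.070 for FBX, and -0.0020 and 0.0068 for all probes. The gaps between these orientations were thus of the same order as the shifts. The changes in the 2 dye orientations correlated across member probes at r = 0.231.

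A change of IP/T of at least 1.5-fold, with the same direction in both orientations, was seen for 3 probes upwards and 3 downwards. Over all probes the shares were 2.83% upwards and 2.05% downwards, and 3 of 161 members is 1.86%. All 6 changes were under 1.5-fold with the normexp preprocessing, where they ran from -0.34 to 0.35. From the Cy3 labellings alone, that of RNF168 (0.60) stayed past 1.5-fold and the others did not. No member reached 2-fold in the mean. The nearest were RNF168 and UBE2W, which passed it when channels were scaled to 1 common median instead of quantile-normalized (1.11 and 1.03). RNF168, which spreads ubiquitin on chromatin at DNA breaks, rose from an IP/T of 1.25 to 2.49, with a log2 change of 0.33 in one orientation and 1.66 in the other. The UBE2W probe at 15.3 in EV cells rose by 0.99 on the log2 scale, with 0.75 and 1.23 in the orientations. Its IP signal was level (10.32 in EV and 10.30 in miR-155-sp cells) while its total signal went from 6.38 to 5.38 and was well above background in 1 labelling of each population. With the normexp preprocessing the change of this probe was -0.15. The other probe that rose was for RNF144B (0.72).

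Downwards, FBXL20 changed by -0.81, UBE2D1 by -0.62 and UBE2J2 by -0.59. UBE2J2 lay at the threshold and was under it with a common median (-0.53). From the Cy3 labellings alone UBE2D1 changed by -0.0033 and UBE2J2 by -0.10. The FBXL20 probe gave a log2 signal of 7.94 and 7.33 in EV total RNA and of 8.04 and 8.11 in miR-155-sp total RNA, with IP signals of 7.27 and 7.17 against 7.0 and 6.68. It was not enriched in EV cells (0.75), nor was the UBE2J2 probe (0.703), an E2 of endoplasmic reticulum-associated degradation. UBE2D1 was thus the only one of the 3 with an IP/T over 2 in EV cells, and its second probe changed by -0.19. Of the 6 probes that changed, only that of UBE2J2 was well above background in all 8 channels.

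Smaller changes had the same direction for the probes of a gene in some cases. Such genes were not counted over the 39 with several probes. In the mean, 59.0% of member probes and 50.1% of all probes were lower. All 3 FBXO9 probes were lower, and the 2 largest changes were -0.44 and -0.38. RNF41 was lower with both probes (-0.19 and -0.38). RNF11, bright in all channels, changed by -0.35 and -0.31 in the orientations, and its IP signal went from 14.05 to 13.61. With a common median the RNF11 change was -0.16. RNF7 was lower in either orientation as well (-0.34 and -0.39). Conversely the dimmer FBXW11 probe (0.58), RNF126 (0.57) and the brighter RNF138 probe (0.47) were higher in either orientation. The brighter FBXW11 probe changed by -0.043. The log2 changes of total and IP RNA were -0.12 and 0.45 for the dimmer FBXW11 probe. They were -0.35 and 0.22 for RNF126 and -0.57 and -0.10 for this RNF138 probe. FBXW7 and RNF149 had changes of -0.0037 and 0.010 with their most enriched probes. In all, 60 member probes (37.3%) were lower and 35 (21.7%) higher in both orientations, against 30.4% and 31.1% of all probes.

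The F-box subclasses had different medians of change, 0.20 for FBXW, -0.0095 for FBXL and -0.14 for FBXO. The FBXW value was not stable between orientations (0.20 with Cy5 as the IP dye and -0.096 with Cy3), while that of FBXO was negative in either (-0.12 and -0.10).

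**Figure D5:**
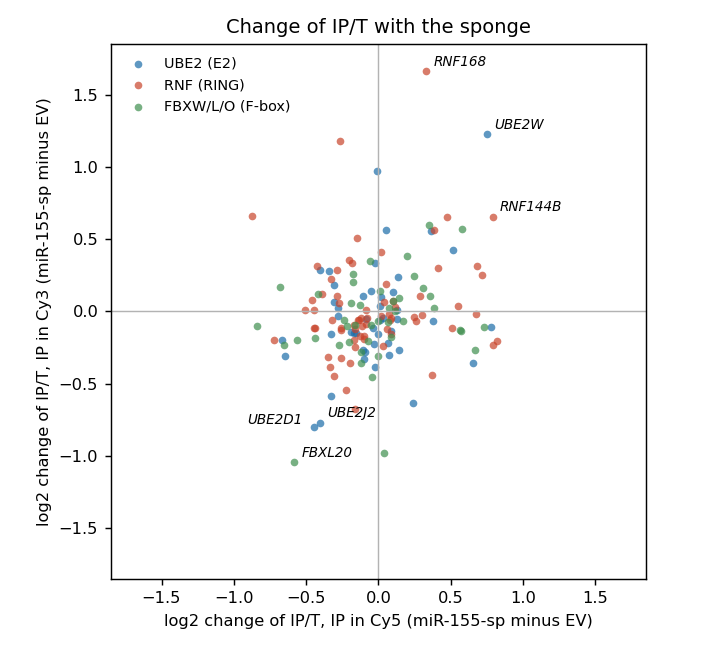
Difference of log2 IP/T (value in miR-155-sp cells less that in EV cells) with the IP in Cy5 (x axis) against the IP in Cy3 (y axis) for 161 member probes coloured by class. Most points lie close to 0 with little agreement between the orientations (r = 0.231), and the 6 named probes are those past 1.5-fold in the mean with the same direction in both.

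In total RNA the classes were flat. The median log2 change was 0.0075 for UBE2, -0.029 for RNF and -0.017 for FBX. Only the dim UBE2W probe was at least 1.5-fold lower in the same direction in both labellings (-1.01), and none was higher, against 1.79% lower and 0.535% higher over all probes. In IP RNA 2 probes were at least 1.5-fold lower, for FBXO38 (-0.79) and FBXO9 (-0.62), and none was higher, against 1.07% and 1.38% of all probes.

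Other genes of the pathway, from a list of 65 genes of which 53 had 90 probes, gave a background from the same system. Of these probes 21 (23.3%) were enriched in EV cells, against 15.1% of all probes, and 5 had an IP/T of at most 0.5. None of the 25 probes for 9 ubiquitin and ubiquitin-like genes was enriched. Their median log2 total signal was 14.78, and among all probes of high total signal 7.64% were enriched in EV cells. The part of signal was not tested. Among E1 enzymes 1 of 9 was, for NAE1 (2.12), a subunit of the NEDD8 E1. The COP9 signalosome, which removes NEDD8 from cullins, had 5 of 10, including COPS2 (3.20) and COPS3 (3.04). HECT ligases, which unlike RING ligases carry ubiquitin themselves, had 7 of 20, including the 3 UBE3C probes (2.40, 4.74 and 6.54). Among E2 and F-box proteins under other symbols 6 of 13 were enriched, with the F-box protein SKP2 at 6.33 in EV and 6.62 in miR-155-sp cells. Cullins and the SCF core had 2 of 13 in EV cells. RBX1, another RING subunit of cullin ligases, was not enriched, at 0.852 in EV and 0.767 in miR-155-sp cells. With the sponge, 2 pathway probes rose by at least 1.5-fold in both orientations and none fell, the larger rise being that of a CUL4B probe from 1.23 to 3.1. A brighter CUL4B probe went from 1.36 to 1.24.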

How the data were processed

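The 4 RNA samples, each labelled with both dyes, gave 8 channels on 4 arrays. Groups came from the labels. The authors deposited scanner output, in which spot intensity is, per the file headers, background-subtracted, spatially detrended and dye-normalized in Feature Extraction 10.7.3.1 (10.5.1.1 in the submitters' processing notes). The authors also deposited log2 values, quantile-normalized in GeneSpring and, per the study's methods, filtered on detection and on agreement within 2-fold between labellings. They differed from the values computed here by a median of 0.00056.

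Here log2 processed signals were used without outlier spots, spots of a probe were averaged and the 8 channels were quantile-normalized. Log2 IP/T is IP minus T after averaging both labellings. Quantile normalization removes any overall difference between fractions, and weak total signals make ratios uncertain. Probes were named through their accessions in a RefSeq gene table of GRCh38.p14, which matched 73.8% of probes with deposited values. As the array was designed on hg18, no probe coordinates are given. Probes of a gene are reported separately.

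With 1 sample per group no p-value was computed, and the number of arrays limits the precision. The share of all probes is given beside the first count of each kind. The members, subgroups and lists were chosen with earlier results of these data known. Named probes were, with detection in every channel, the 4 highest and 3 lowest of each class in EV cells and the 2 largest changes in each direction, all probes of a fixed gene list, discordant probes, and those nearest the change threshold or the class median. Others are stated or serve to account for a count. Alternatives were a common median, normexp (offset 50, loess and Aquantile, limma 3.58.1 in R 4.3.3), the deposited values, other filters, single labellings or orientations, and gene means. Other steps used Python 3.11.15, numpy 2.4.6 and pandas 2.3.3. The code was tested on simulated data. Some genes that met these rules are not reported here.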

Additional observations from a re-analysis of the deposited data

Results flagged for a closer look

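A total of 3 probes that matched the symbols but had no deposited normalised value were well above background in all 4 IP channels. Both FBXO3 probes of this kind had an IP/T over 2 in EV cells, 3.53 and 9.91, and the values were 2.63 and 6.06 with the sponge. The FBXO3 probe with deposited values gave 3.26 and 2.35, with total RNA well above background in 1 of 2 EV labellings. The probes without deposited values were picked by detection in the IP channels. Their IP/T therefore cannot serve as a check on the enrichment of the gene. RNF151 had an IP/T of 1.64 in EV and 1.75 in miR-155-sp cells. The labellings of at least 1 sample differed by over 2-fold for each of these probes, with a largest log2 gap of 1.30 and 1.88 for FBXO3 and of 1.01 for RNF151.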

How the results depend on the processing

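Of 143 values for 13 class results under 11 alternatives, 117 stayed within 1.5-fold for counts or within the spread of the dye orientations for medians. The median log2 IP/T minus that of all probes was positive for RNF and FBX under all 11 alternatives in both populations and for UBE2 under 10 in each. With normexp the median of all probes moved from -0.25 to -0.023 in EV cells, and changes are best read against it. This setting gave 15 enriched RNF probes in EV and 14 in miR-155-sp cells, 6 and 6 FBX probes and 12 other pathway probes, and RNF differences of 0.22 and 0.22. The share of high values among all high and low members went from 67.2% to 100% in EV cells, and from 54.1% to 79.8% over all probes. It turned the change of the dim UBE2W probe to -0.15. With probes in all 8 channels, UBE2 had 3 and 3 enriched probes and the RNF differences were 0.36 and 0.18. In miR-155-sp cells the RNF difference was 0.67 with a common median, 0.48 over all filtered array probes, 0.54 with labellings within 1.5-fold, 0.68 with IP in Cy3 alone and 0.58 by gene mean. With IP in Cy3 alone it was 0.48 in EV cells. The FBX difference in miR-155-sp cells was 0.47 with labellings within 1.5-fold and 0.46 with IP in Cy3 alone. That of UBE2 was 0.11 with a common median and -0.0094 with IP in Cy5 alone. UBE2 had 4 enriched probes in miR-155-sp cells with labellings within 1.5-fold, and by gene 3 in EV and 2 in miR-155-sp cells. Leaving out either labelling gave RNF differences from 0.67 to 0.71 and FBX differences from 0.11 to 0.39 in miR-155-sp cells. The causes were not tested. Of 24 named enriched probes, 15 stayed at or above 2 under every alternative that retained them as probes, and 17 under normexp. The lower detection in Cy5 limits the values of dim probes. No paired analysis was possible because the labelling numbers mark dyes of the same RNA and each group holds 1 sample.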
